A study of Rattus norvegicus with 12 samples.

Results

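The interferon-response genes followed here are 37 rat genes that cells switch on when they receive an interferon signal, measured in the striatum of rats with a dopamine lesion. They were chosen from a list of known interferon-stimulated genes, with the signals of these same 12 arrays over the 4 groups already seen, so what they do here describes these arrays and is not independent evidence. Of the 37 genes, 34 had at least 1 probe on the array (39 probes in all), and 31 were bright enough to be tested among 19412 features, of which 11110 carried a gene symbol. Ifi47, Parp14 and Xaf1 matched no probe, and Oasl, Trim21 and Socs1 had a probe that was too dim to test. Of the 31 tested genes, 29 were above background on all 12 arrays, and Ifih1 passed the filter through 1 group alone.

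RNA came from the striatum of male Wistar rats and was hybridised to Agilent single-colour arrays, 3 per group. Every rat had received 6-hydroxydopamine (6-OHDA), a toxin that kills dopamine neurons, in the left medial forebrain bundle, along which dopamine axons reach the striatum, and was kept if it made at least 7 turns per minute after methamphetamine at 3 mg/kg. In the ZDL group it is the lesioned side, treated daily for 7 days with L-DOPA (100 mg/kg) and, 30 min later, zonisamide (50 mg/kg). In the DL group it is the lesioned side of rats given the same L-DOPA dose without zonisamide. The SL group is the lesioned striatum after saline, and the NL group is the opposite, non-lesioned striatum after saline. L-DOPA, the precursor of dopamine, was given after benserazide, which blocks its conversion outside the brain, and zonisamide, developed against epilepsy, is prescribed in Parkinson's disease as well. No group received zonisamide without L-DOPA, and NL is the other hemisphere of lesioned rats, not an unoperated brain. The design text assigns 3 animals to each group and does not say whether the SL and NL arrays come from the same rats.

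Interferons bind receptors on the cell surface, and the Janus kinases behind those receptors phosphorylate STAT proteins. A complex of STAT proteins with IRF9 binds a DNA element called the interferon-stimulated response element (ISRE), whereas STAT dimers bind the gamma-activated site (GAS), the usual route of interferon gamma. The genes behind these elements encode RNA sensors, enzymes that destroy viral RNA, membrane proteins that hinder virus entry, large GTPases and chemokines. In the brain, microglia, astrocytes, endothelial cells and neurons can all respond to interferon.

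The 75th percentile of the processed signal lay between 793 and 1737 intensity units across arrays, and 67.6% to 74.0% of probes were well above background. Signals are given on the log2 scale after subtracting the 75th percentile of their array, so a value of 0 equals that percentile, and levels of different probes are not compared with each other. Replicate spots of a probe varied by over 20% on 5 arrays, the 3 NL arrays, DL 3 and ZDL 3. Transcripts of the choroid plexus, which lies in the ventricles and secretes cerebrospinal fluid, stood apart between arrays of 1 group. Ttr, its most abundant transcript, was at 4.28, 2.72 and 6.67 on the ZDL arrays, 4.31, 7.27 and 6.89 on the DL arrays, -0.74, 4.35 and 3.30 on the SL arrays and 2.32, 3.05 and 6.73 on the NL arrays. The array NL 3, high in Ttr, also stood apart from NL 1 and NL 2 in several interferon-response genes, and it was the highest NL array for 20 of the 31. Striatal spiny neuron markers, 9 of 10 of them tested, had a summed level of 153 to 221 times the 75th percentile on ZDL arrays, 155 to 181 on DL arrays, 197 to 201 on SL arrays and 163 to 235 on NL arrays.

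With L-DOPA most interferon-response genes had a higher signal, and with zonisamide added most had a lower one. In DL against SL, 27 of 31 genes were higher and 4 lower, with a median log2 change of 0.61, against a median of -0.03 over all features. For 17 of the 31 all DL arrays lay above all SL arrays and for 0 all lay below, while over all features 11.7% were higher and 10.8% lower without overlap. In ZDL against DL, 4 of 31 were higher and 27 lower, with a median of -0.74 against -0.03 over all features. For 17 all ZDL arrays lay below all DL arrays and for 0 above, against 10.5% and 6.82% of all features. These comparisons share the DL arrays, so high DL values enter both with opposite sign. At an adjusted p below 0.05 in a limma fit across all features, 1 gene (Ifitm3) rose with L-DOPA, where 0.433% of all features were called, and 2 genes (Ifitm3 and Gbp2) fell with zonisamide, where 0.479% were called. Without adjustment, 14 of the 31 had p below 0.05 in the first comparison, against 2192 of 19412 features, and 15 in the second, against 2408. That fit used group alone and ignored the slides that ZDL and DL arrays share. With replicate number as a block, 0 of the 31 passed in either comparison.

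**Figure D1:**
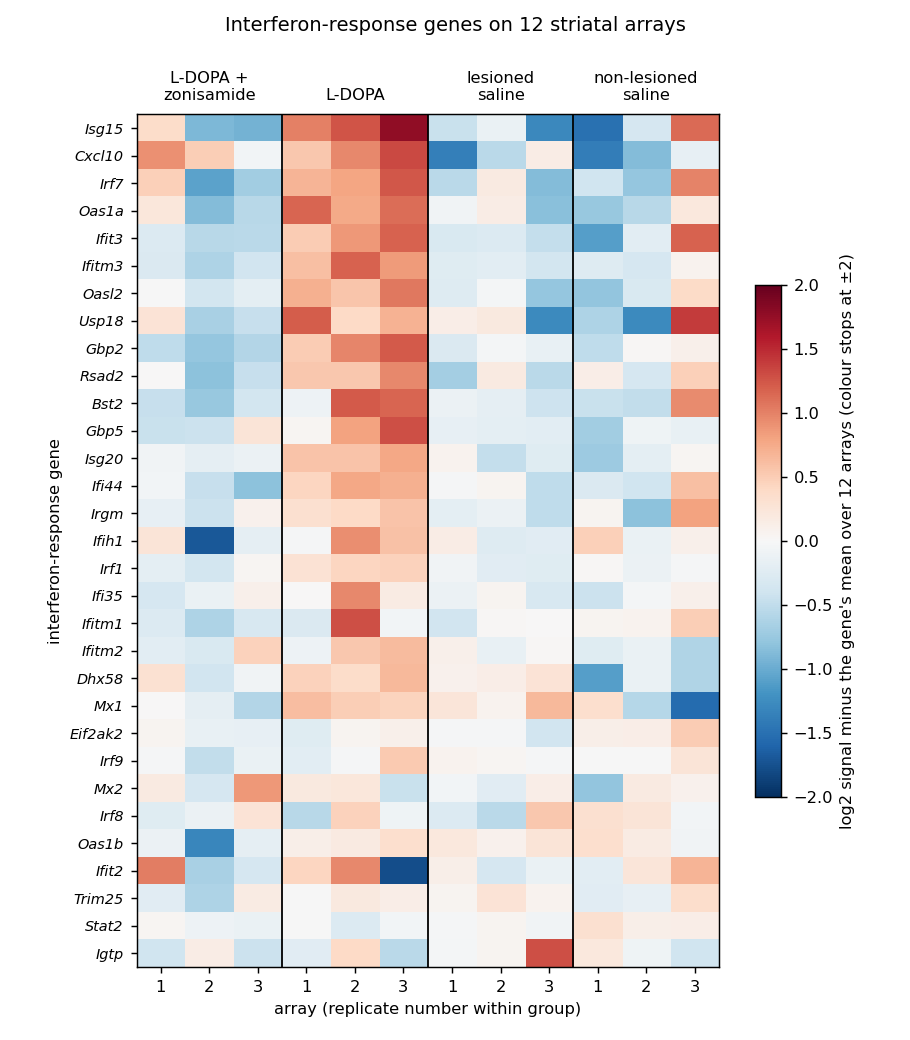
Heat map of the 31 tested interferon-response genes (rows, in the order of their log2 change with L-DOPA) on the 12 arrays (columns, by group and replicate number); the colour is the log2 signal minus the gene's mean over the 12 arrays, and colours stop at 2 in either direction. The 3 DL arrays are above the mean for 21 to 29 genes each, against 2 to 13 genes on ZDL arrays, 10 to 14 on SL arrays and 8 to 22 on NL arrays.

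Over the 31 genes together, the median deviation from each gene's mean was -0.05, -0.46 and -0.18 on ZDL 1, 2 and 3, and 0.32, 0.56 and 0.63 on DL 1, 2 and 3. It was -0.06, -0.04 and -0.22 on the SL arrays and -0.26, -0.14 and 0.13 on the NL arrays. The 3 DL arrays were the 3 highest of the 12. Within the ZDL group the array ZDL 1 was the highest for 21 of the 31 genes, and within the DL group DL 1 was the highest for 4.

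The first group of genes is that of the transcription factors, Irf1, Irf7, Irf8, Irf9 and Stat2. Irf1, an early target of interferon gamma, was at -0.98, -1.14 and -0.74 on ZDL arrays, -0.50, -0.34 and -0.33 on DL arrays, -0.85, -1.003 and -1.02 on SL arrays and -0.76, -0.90 and -0.81 on NL arrays. The DL arrays lay above every other array. The log2 difference was 0.57 ± 0.14 (SE) for DL minus SL and -0.56 ± 0.14 for ZDL minus DL, and neither passed (adjusted p = 0.137 and 0.122). A second, much dimmer Irf1 probe gave 0.32 and -0.16, with overlapping groups in both comparisons.

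Irf7, the factor that amplifies the type I interferon response, was at -1.56, -3.11 and -2.73 on ZDL arrays, -1.36, -1.25 and -0.80 on DL arrays, -2.58, -1.86 and -2.90 on SL arrays and -2.44, -2.82 and -1.04 on NL arrays. Its DL arrays did not overlap the SL or the ZDL arrays, but NL 3 lay among them. The differences of 1.31 ± 0.51 for DL minus SL and -1.33 ± 0.51 for ZDL minus DL did not pass (adjusted p = 0.365 and 0.318).

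Irf9 and Stat2, parts of the complex that binds the ISRE, did not follow that order. Irf9 was at -3.19, -3.66 and -3.30 on ZDL arrays, -3.39, -3.18 and -2.64 on DL arrays, -3.09, -3.13 and -3.19 on SL arrays and -3.17, -3.17 and -2.90 on NL arrays. Its difference of 0.07 for DL minus SL had a 95% interval of -0.39 to 0.52. Its mean was lower in ZDL than DL (-3.38 against -3.07), with overlapping arrays. Stat2 was at 0.51, 0.37 and 0.34 on ZDL arrays, 0.46, 0.20 and 0.42 on DL arrays, 0.44, 0.52 and 0.40 on SL arrays and 0.79, 0.58 and 0.59 on NL arrays. Its difference was -0.10 for DL minus SL (95% interval -0.39 to 0.20) and 0.05 for ZDL minus DL (-0.24 to 0.34), intervals that leave out changes of the size fitted for Irf1 and Irf7. Irf8, a factor of microglia and other myeloid cells, differed by 0.03 in each of these comparisons, with its groups overlapping.

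**Figure D2:**
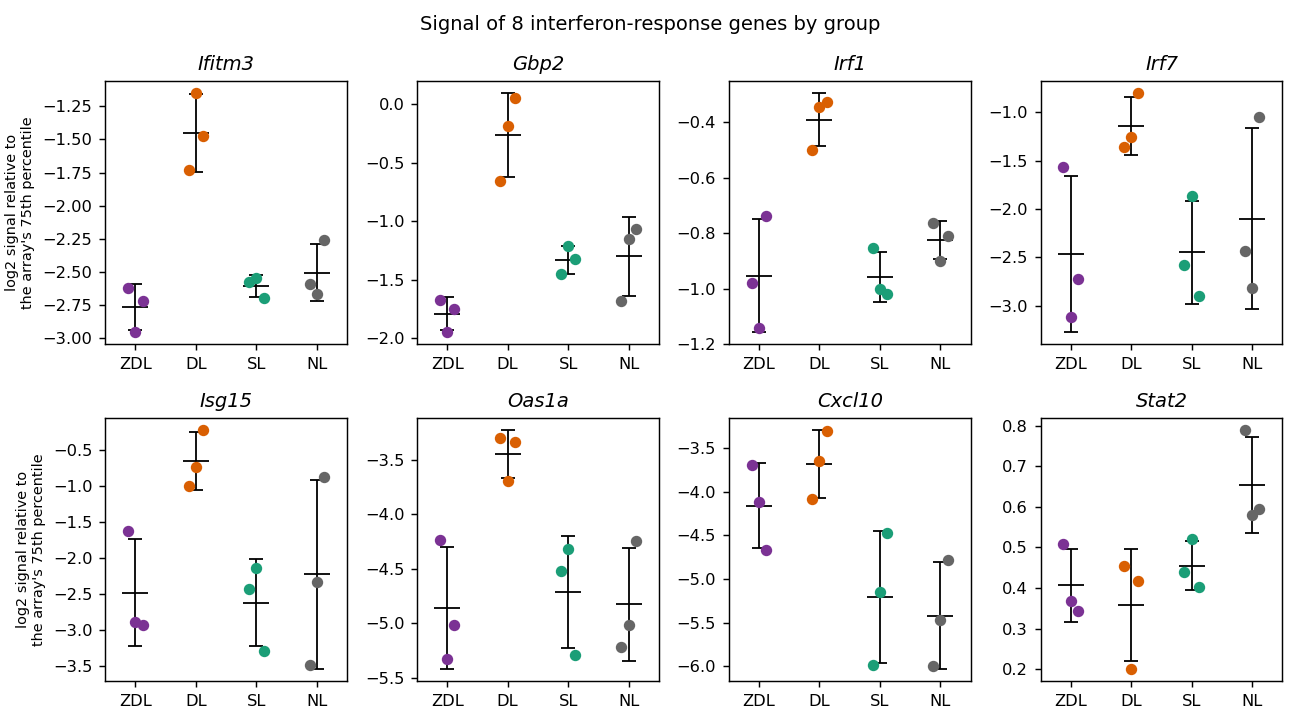
Log2 signal relative to the array's 75th percentile (vertical axis, a separate range for each gene) of 8 interferon-response genes in the ZDL, DL, SL and NL groups; points are arrays, bars are the mean and SD of 3 arrays. For Ifitm3, Gbp2, Irf1, Irf7, Isg15 and Oas1a the DL points lie above the ZDL and the SL points, for Cxcl10 the ZDL and DL points overlap, and for Stat2 the DL points overlap the ZDL and the SL points.

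The largest group holds RNA sensors, enzymes acting on RNA and blockers of translation, 10 of 11 tested. In it 9 were higher and 1 lower in DL than SL (median 0.73), 6 higher without overlap, against 11.7% of all features. For ZDL against DL, 9 were lower and 1 higher (median -0.86), 7 lower without overlap, against 10.5% of all features. None passed the test in either comparison. Oas1a, which makes the messenger that activates the antiviral nuclease RNase L, was at -4.23, -5.32 and -5.01 on ZDL arrays, -3.30, -3.70 and -3.34 on DL arrays, -4.52, -4.32 and -5.29 on SL arrays and -5.22, -5.02 and -4.24 on NL arrays. All 3 DL arrays lay above the other 9. It was 2.40-fold higher in DL than SL (log2 1.27 ± 0.36, adjusted p = 0.203) and 2.66-fold lower in ZDL than DL (log2 -1.41 ± 0.36, adjusted p = 0.128).

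Oas1b, a relative known in mice for resistance to flaviviruses, had a different course. It was at 4.34, 3.15 and 4.27 on ZDL arrays, 4.57, 4.63 and 4.79 on DL arrays, 4.66, 4.53 and 4.71 on SL arrays and 4.78, 4.61 and 4.38 on NL arrays. Its DL and SL arrays overlapped (log2 0.03 ± 0.28), and its 3 ZDL arrays were the lowest of the 12, with ZDL 2 furthest down (ZDL minus DL -0.74 ± 0.28, adjusted p = 0.309). Whether the probes of close relatives (Oas1a and Oas1b, Mx1 and Mx2, Ifitm1, Ifitm2 and Ifitm3) also bind each other's RNA was not tested. Oasl2, an OAS-like protein, was at -1.84, -2.20 and -2.02 on ZDL arrays, -1.12, -1.27 and -0.77 on DL arrays, -2.09, -1.87 and -2.61 on SL arrays and -2.63, -2.14 and -1.45 on NL arrays. The DL arrays again lay above all others, by 1.13 ± 0.30 over SL (adjusted p = 0.163), with ZDL lower than DL by a log2 difference of -0.96 ± 0.30 (adjusted p = 0.216).

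Isg20, an exonuclease that degrades single-stranded RNA, was at -3.26, -3.38 and -3.31 on ZDL arrays, -2.63, -2.63 and -2.42 on DL arrays, -3.12, -3.67 and -3.44 on SL arrays and -3.92, -3.39 and -3.16 on NL arrays. The lowest DL array was above the highest of any other group, and the difference was 0.85 ± 0.21 for DL minus SL (adjusted p = 0.135). Rsad2, the antiviral enzyme viperin, was at -2.43, -3.26 and -2.90 on ZDL arrays, -1.91, -1.91 and -1.48 on DL arrays, -3.13, -2.26 and -2.99 on SL arrays and -2.30, -2.77 and -1.97 on NL arrays. DL was 2.03-fold above SL (adjusted p = 0.226), ZDL was 2.14-fold below DL (adjusted p = 0.158), and NL 3 came close to the DL arrays. Ifit3, of a family that blocks translation of foreign RNA, was 2.30-fold higher in DL than SL and 2.48-fold lower in ZDL than DL without overlap, but NL 3, at -3.88, equalled the highest DL array.

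Among the sensors the differences were small or uneven. Dhx58 (LGP2), a regulator of RIG-I-like sensing, was at -4.16, -4.84 and -4.53 on ZDL arrays, -4.001, -4.09 and -3.81 on DL arrays, -4.38, -4.32 and -4.18 on SL arrays and -5.56, -4.58 and -5.06 on NL arrays. Its DL minus SL difference was 0.33 ± 0.25 and its ZDL minus DL difference -0.54 ± 0.25, small but without overlap. Ifih1 (MDA5), a sensor of long double-stranded RNA, was above background on all 3 DL arrays but on only 2 ZDL, 1 SL and 2 NL arrays, so its entry into the tested set depended on its DL signal. Eif2ak2 (PKR), the kinase that stops translation when it meets double-stranded RNA, was at -2.69, -2.89 and -2.92 on ZDL arrays, -3.00, -2.69 and -2.66 on DL arrays, -2.77, -2.78 and -3.14 on SL arrays and -2.63, -2.62 and -2.24 on NL arrays. The drug groups overlapped with each other and with SL, and a second Eif2ak2 probe gave DL minus SL with the other sign (-0.21, against 0.12). Ifit2 had a spread that allows no reading, with DL arrays at -4.37, -3.83 and -6.57.

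Among the Mx and membrane restriction proteins, all 6 were tested, 6 were higher in DL than SL (2 without overlap) and 5 were lower in ZDL than DL (3 without overlap). The shares without overlap over all features were 11.7% and 10.5%. Ifitm3, a membrane protein that keeps viruses from fusing with endosomes, was at -2.62, -2.95 and -2.72 on ZDL arrays, -1.73, -1.15 and -1.47 on DL arrays, -2.57, -2.54 and -2.70 on SL arrays and -2.59, -2.66 and -2.26 on NL arrays. The 3 DL arrays stood clear of the other 9, which lay within a narrow band. Ifitm3 rose 2.22-fold in DL over SL (log2 1.15 ± 0.18, adjusted p = 0.0335) and fell 2.48-fold in ZDL relative to DL (log2 -1.31 ± 0.18, adjusted p = 0.0240). The rise lost its call when DL 2, DL 3, any SL array, NL 1, NL 2 or ZDL 3 was left out (adjusted p up to 0.143).

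In the ZDL and DL groups equally numbered arrays share a slide, so a fit with the replicate number as a block applies there, and with this pairing Ifitm3 had an adjusted p of 0.0657 and Gbp2 of 0.0547. That fit blocked all 12 arrays by replicate number, including NL 2, NL 3 and SL 3, which lay on other slides than the DL arrays of their number. In it 13 features were called in place of 93, and 0 of the interferon-response genes. With slide as a random block both zonisamide calls held (adjusted p = 0.0151 for each), as did the rise of Ifitm3 with L-DOPA (0.0294). With slide as a fixed block none of these calls held. The adjusted p for zonisamide was then 0.108 for Ifitm3 and 0.103 for Gbp2, and 0.328 for the rise of Ifitm3. Leaving out DL 2, DL 3, SL 2, ZDL 2 or ZDL 3 also ended both zonisamide calls (adjusted p up to 0.120 for Ifitm3 and 0.126 for Gbp2). The log2 differences themselves stayed between -1.45 and -1.16 for Ifitm3 and between -1.72 and -1.37 for Gbp2 over all 12 such fits.

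Ifitm1 and Ifitm2, relatives of Ifitm3, were higher in DL than SL by 0.43 ± 0.36 and 0.37 ± 0.26 with overlapping arrays. For Ifitm1 the array DL 2 stood at -1.24, against -2.83 and -2.60 on DL 1 and DL 3. Bst2 (tetherin), which holds budding viruses on the cell surface, was at -1.40, -1.70 and -1.31 on ZDL arrays, -1.05, 0.29 and 0.22 on DL arrays, -1.06, -1.12 and -1.36 on SL arrays and -1.39, -1.44 and 0.01 on NL arrays. DL 1 lay barely above the highest SL array, and NL 3 lay with DL 2 and DL 3. Mx1, an antiviral dynamin-like GTPase, was at -0.70, -0.89 and -1.30 on ZDL arrays, -0.10, -0.23 and -0.27 on DL arrays, -0.47, -0.65 and -0.07 on SL arrays and -0.39, -1.28 and -2.26 on NL arrays. Its DL and SL arrays overlapped, all ZDL arrays lay below both, and NL 3 was its lowest array. Mx2 differed by 0.04 for DL minus SL and 0.24 for ZDL minus DL, each with an SE of 0.35.

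Of the interferon-inducible GTPases, which attack the vacuoles of intracellular pathogens, 4 of 5 were tested, 3 were higher in DL than SL (all without overlap) and 4 lower in ZDL than DL (2 without overlap). For all features the shares without overlap were 11.7% and 10.5%. Gbp2, a guanylate-binding protein, was at -1.67, -1.95 and -1.75 on ZDL arrays, -0.66, -0.19 and 0.05 on DL arrays, -1.45, -1.21 and -1.32 on SL arrays and -1.68, -1.15 and -1.07 on NL arrays. The DL arrays were the 3 highest of the 12, and all 3 ZDL arrays lay below all SL arrays. Gbp2 fell 2.88-fold in ZDL relative to DL (log2 -1.53 ± 0.22, adjusted p = 0.0249), and it was 2.09-fold higher in DL than SL without passing (log2 1.07 ± 0.22, adjusted p = 0.0808). With 1 array left out, the L-DOPA difference passed only without DL 1 (adjusted p = 0.0362) and missed the threshold in the other 11 fits (up to 0.262).

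Gbp5, a GTPase of the same family, was 1.86-fold higher in DL than SL without overlap. Its second probe, above background on 1 DL array only, had a DL mean 1.46-fold above SL. For this ratio, SL values below the lowest above-background signal of any probe on their array were raised to that signal. The DL mean took in arrays not above background, so the ratio is not a lower bound. Irgm was 1.63-fold higher in DL than SL and 1.51-fold lower in ZDL than DL, both without overlap and neither called. Igtp, an immunity-related GTPase, was at 4.29, 4.85 and 4.27 on ZDL arrays, 4.47, 5.09 and 4.15 on DL arrays, 4.65, 4.75 and 5.99 on SL arrays and 4.90, 4.60 and 4.30 on NL arrays. SL 3 was its outlying array, the groups overlapped, and the log2 difference was -0.56 ± 0.37 for DL minus SL, the lowest of the 31. Its second tested probe gave -0.29 with overlapping groups.

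Isg15, a ubiquitin-like protein that is attached to newly made proteins, led the list by size of change. It was at -1.62, -2.90 and -2.94 on ZDL arrays, -0.998, -0.74 and -0.22 on DL arrays, -2.44, -2.14 and -3.29 on SL arrays and -3.49, -2.33 and -0.87 on NL arrays. The DL arrays overlapped neither ZDL nor SL, and NL 3 fell within them. DL was 3.92-fold above SL (log2 1.97 ± 0.62, adjusted p = 0.254) and ZDL 3.56-fold below DL (log2 -1.83 ± 0.62, adjusted p = 0.250). Usp18, the protease that removes Isg15 and dampens the interferon receptor, gave 1.09 ± 0.64 and -1.05 ± 0.64, and its second probe gave 1.03 and -1.05, both without overlap. Usp18, too, was high on NL 3, at -2.60, against -4.62 and -5.27 on NL 1 and NL 2.

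Trim25, the ubiquitin ligase that helps to activate RIG-I, was at -2.24, -2.64 and -1.87 on ZDL arrays, -2.03, -1.82 and -1.89 on DL arrays, -1.96, -1.75 and -1.96 on SL arrays and -2.25, -2.19 and -1.67 on NL arrays. Its groups overlapped in both drug comparisons (DL minus SL -0.02 ± 0.22). Trim21, a cytosolic antibody receptor, was above background on 1 DL and 1 NL array only. Its DL mean was 1.79-fold above SL and 1.81-fold above ZDL on the reckoning used for Gbp5, again not lower bounds. Oasl, above background on 1 DL array only, had a DL mean 1.88-fold above SL on that reckoning. Socs1, a brake on Janus kinase signalling, was above background on 0 arrays.

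Cxcl10, the chemokine that draws activated T cells, was at -3.70, -4.12 and -4.66 on ZDL arrays, -4.09, -3.65 and -3.30 on DL arrays, -5.99, -5.15 and -4.47 on SL arrays and -6.00, -5.48 and -4.79 on NL arrays. All DL arrays lay above all SL and NL arrays, while ZDL and DL overlapped. DL was 2.88-fold above SL (log2 1.53 ± 0.43, adjusted p = 0.203), ZDL was 2.06-fold above SL (log2 1.05 ± 0.43, adjusted p = 0.666), and ZDL minus DL was -0.48 ± 0.43 (adjusted p = 0.720). Ifi44, an interferon-induced gene, was at -1.81, -2.22 and -2.58 on ZDL arrays, -1.32, -0.98 and -1.04 on DL arrays, -1.78, -1.69 and -2.27 on SL arrays and -2.04, -2.15 and -1.15 on NL arrays. DL was 1.74-fold above SL and ZDL 2.13-fold below DL (adjusted p = 0.343 and 0.1503), and NL 3 lay within the DL range. Ifi35 gave 0.51 ± 0.26 and -0.50 ± 0.26 with overlapping arrays.

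**Figure D3:**
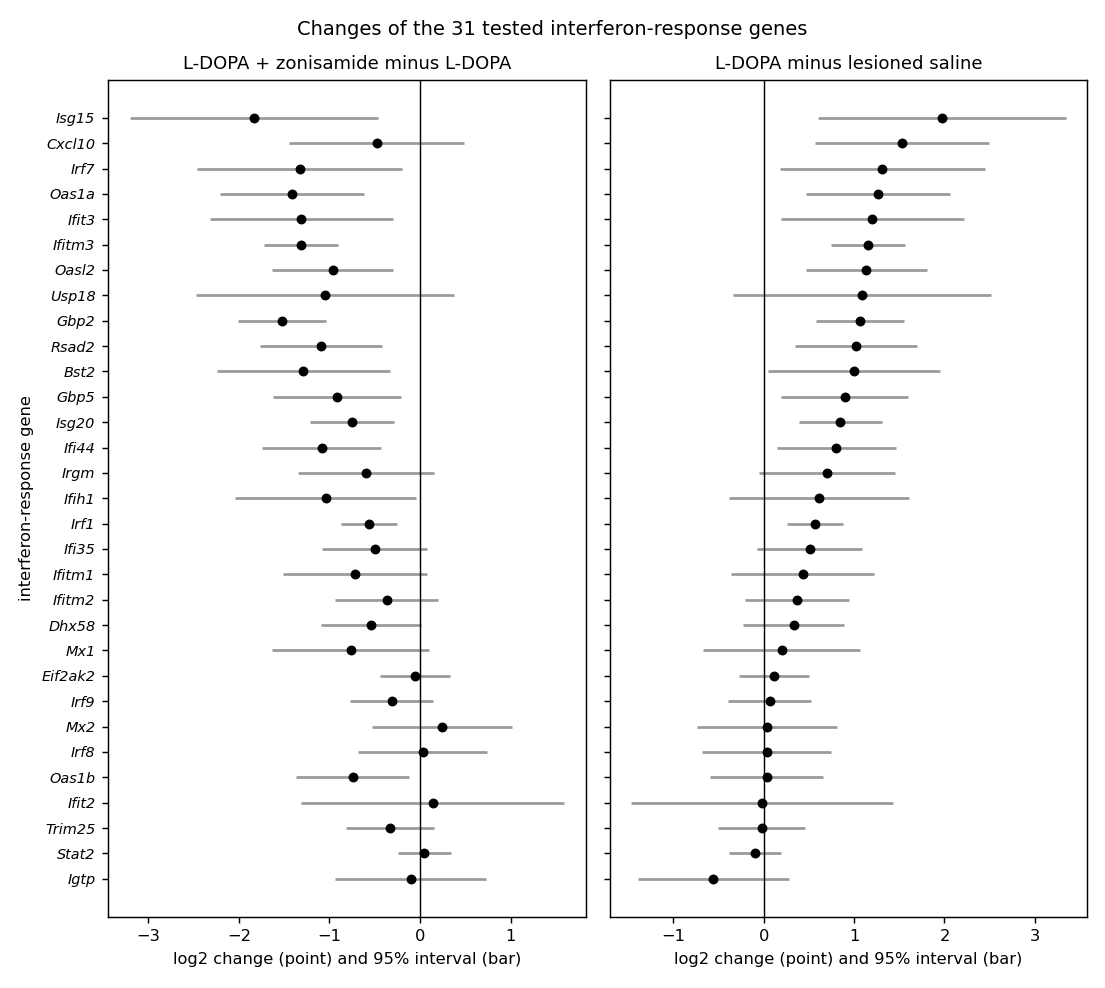
Log2 changes (points) of the 31 tested interferon-response genes with 95% intervals from the limma fit by group alone (bars), for ZDL minus DL (left) and DL minus SL (right), genes in the order of the right panel. Points lie below 0 for 27 genes on the left and above 0 for 27 on the right; both panels use the same DL arrays.

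In the comparison of both drugs with saline, ZDL against SL, the genes showed no common direction. In it 12 of 31 were higher and 19 lower, with a median of -0.05 that equalled the -0.05 of all features, and the larger side changed with the scaling (17 higher and 14 lower after quantile normalization, 23 and 8 after normexp correction with quantile normalization). With slide as a fixed block, 4 were higher and 27 lower. None was called in the limma fit, where 0% of features passed and 1424 of 19412 had an unadjusted p below 0.05. For 0 genes all ZDL arrays lay above all SL arrays and for 4 (Irf9, Oas1b, Mx1 and Gbp2) all lay below, against 6.57% and 11.6% of all features. Gbp2 was lower in ZDL than SL by a log2 difference of -0.46 ± 0.22, Oas1b by -0.71 ± 0.28 and Mx1 by -0.57 ± 0.39. The 95% interval was -0.57 to 0.25 for Ifitm3 and -1.23 to 1.51 for Isg15, and both intervals leave out the difference fitted for the same gene between DL and SL. That fitted difference has an error of its own, and for Isg15 the direct comparison of ZDL with DL did not pass.

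For the lesion, SL against NL, 11 of 31 genes were higher and 20 lower with a median of -0.12, which turned to 0.18 (22 higher and 9 lower) when NL 3 was left out and to 0.25 with slide as a fixed block. The median over all features was 0.05. Again none was called in the limma fit (0% of features, with 1646 of 19412 below an unadjusted p of 0.05). Without overlap 1 gene was higher (Dhx58) and 3 lower (Eif2ak2, Stat2 and Ifitm1), against 8.66% and 8.34% of all features. Dhx58 was 1.71-fold higher in SL (log2 0.78 ± 0.25, adjusted p = 0.503), Eif2ak2 1.32-fold lower (log2 -0.40 ± 0.17, adjusted p = 0.588) and Stat2 1.15-fold lower (log2 -0.20 ± 0.13, adjusted p = 0.685). A second Eif2ak2 probe went the other way, with means of -3.81 in SL and -4.01 in NL and overlapping arrays. Mx1 was higher in SL by 0.91 ± 0.39 with overlapping arrays (adjusted p = 0.581).

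The promoters of these genes were searched for the ISRE core, GAAANNGAAA, and the GAS core, TTCNNNGAA, on both strands (the reverse of the ISRE core reads TTTCNNTTTC) because most of the genes lay on 1 side in each drug comparison. The windows, from RefSeq on the rat assembly GRCr8, run from 250 bases before to 50 bases after the start of a gene, and 31 of the 37 genes had one. Isg15, Usp18, Ifit2, Mx2, Dhx58 and Ifitm1 were not among them. An ISRE core lay in 22 of the 31 windows (71.0%), against 1312 of 33469 windows of all genes (3.92%), and a GAS core in 12 of 31 (38.7%), against 2970 (8.87%). The genes were drawn from known interferon-stimulated genes, the kind that these elements control. High shares therefore come with that choice and are not a finding about the drugs. The GAS core is its own reverse complement, and in Bst2 it overlapped an ISRE core. Printed below, with the ISRE core in capitals, are the windows of both called genes, of Irf7 and Cxcl10, whose ZDL arrays lay apart from the DL arrays in Irf7 and overlapped them in Cxcl10, and of Stat2, which held neither motif.
Ifitm3 promoter (chr1:205541709-205542008, minus strand): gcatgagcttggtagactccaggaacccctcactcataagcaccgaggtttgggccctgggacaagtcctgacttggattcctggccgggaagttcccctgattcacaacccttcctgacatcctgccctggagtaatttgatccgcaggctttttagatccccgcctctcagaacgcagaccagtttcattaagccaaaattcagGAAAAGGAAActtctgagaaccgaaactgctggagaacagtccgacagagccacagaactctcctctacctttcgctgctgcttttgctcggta
Gbp2 promoter (chr2:234005477-234005776, plus strand): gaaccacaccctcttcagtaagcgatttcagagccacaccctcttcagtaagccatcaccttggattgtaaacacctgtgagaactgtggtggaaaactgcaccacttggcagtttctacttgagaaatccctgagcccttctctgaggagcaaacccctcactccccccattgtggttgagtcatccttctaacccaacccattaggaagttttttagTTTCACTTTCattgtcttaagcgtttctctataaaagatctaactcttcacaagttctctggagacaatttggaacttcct
Irf7 promoter (chr1:205799974-205800273, minus strand): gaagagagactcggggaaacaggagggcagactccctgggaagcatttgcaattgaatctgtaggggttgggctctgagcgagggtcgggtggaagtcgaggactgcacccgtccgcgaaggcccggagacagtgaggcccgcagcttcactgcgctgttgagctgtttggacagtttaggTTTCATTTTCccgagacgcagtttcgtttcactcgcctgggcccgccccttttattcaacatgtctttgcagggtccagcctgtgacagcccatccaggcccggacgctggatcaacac
Cxcl10 promoter (chr14:15988816-15989115, plus strand): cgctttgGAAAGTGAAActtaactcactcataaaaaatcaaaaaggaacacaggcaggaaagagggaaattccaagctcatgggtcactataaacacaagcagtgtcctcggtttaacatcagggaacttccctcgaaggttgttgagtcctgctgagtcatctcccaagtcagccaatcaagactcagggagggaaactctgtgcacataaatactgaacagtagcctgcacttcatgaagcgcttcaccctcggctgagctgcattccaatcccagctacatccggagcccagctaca
Stat2 promoter (chr7:1286840-1287139, plus strand): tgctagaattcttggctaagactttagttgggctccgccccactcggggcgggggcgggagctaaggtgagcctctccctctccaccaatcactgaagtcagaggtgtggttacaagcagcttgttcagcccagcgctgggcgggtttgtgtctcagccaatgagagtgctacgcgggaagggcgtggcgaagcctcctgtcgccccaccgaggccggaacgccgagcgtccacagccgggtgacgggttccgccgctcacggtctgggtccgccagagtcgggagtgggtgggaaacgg

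Counting bases before the start as negative, the ISRE core ran from -44 to -35 in Ifitm3, from -31 to -22 in Gbp2, from -69 to -60 in Irf7 and from -243 to -234 in Cxcl10. Ifitm3 also held a GAS core from base -33 to -25. Irf1 held a GAS core and no ISRE core. Of the 18 tested genes with an ISRE core, 18 were lower in ZDL than DL (12 without overlap, median -1.003) and 17 were higher in DL than SL (13 without overlap, median 0.95). The smallest of the 18 ZDL minus DL differences was only -0.05. For Igtp the count rests on the brighter probe, since its second tested probe had means of -4.36 in ZDL and -4.38 in DL. Of the 7 tested genes with a window and no ISRE core, 5 were lower in ZDL than DL (2 without overlap, median -0.33) and 5 higher in DL than SL (1 without overlap, median 0.07). Without overlap, 10.5% of all features were lower in ZDL than DL and 11.7% higher in DL than SL. The 18 include Ifih1, which entered through its DL signal. All these genes were chosen with the signals already seen, so the split by motif is a description, and a role of the ISRE was not tested. The genes without the core were Irf1, Irf8, Irf9, Stat2, Mx1, Trim25 and Ifi35. Among those with it, Igtp, Oas1b, Eif2ak2, Ifih1 and Ifitm2 had DL arrays that overlapped the SL arrays, and of these only Igtp had a lower mean in DL. A core in the window thus did not go with DL arrays clear of the SL arrays in every gene.

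**Figure D4:**
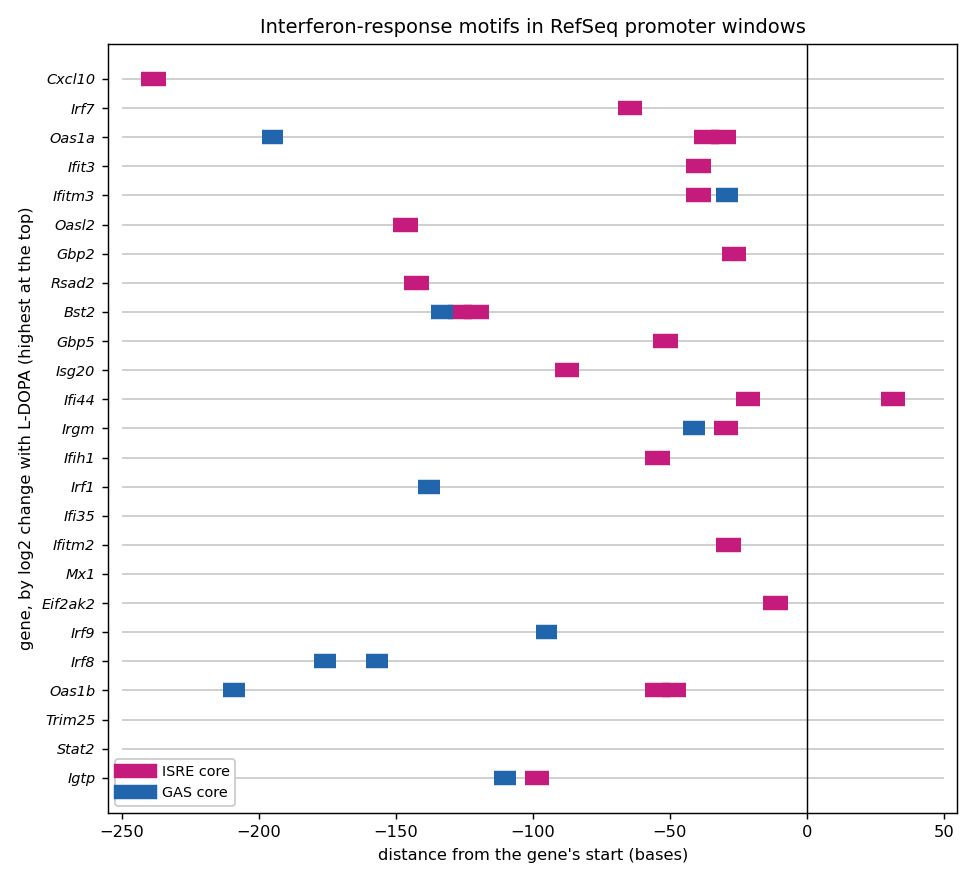
Position of ISRE cores (magenta) and GAS cores (blue) relative to the start of the gene (horizontal axis, bases) in the RefSeq windows of 25 tested interferon-response genes, in the order of their log2 change with L-DOPA, highest at the top. ISRE cores lie in 18 of the 25 windows, most of them near the start, and 4 windows (Ifi35, Mx1, Trim25 and Stat2) show neither motif.

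Other genes of the pathway were taken from lists written for these rats with earlier results known. Of 15 interferon ligands and receptors, 9 had a probe and 5 were tested. Ifnb1, Ifng, Ifna5 and Ifnk, which encode interferons, were on the array and too dim to test. Ifna4, another interferon gene, was among the 5 tested. It was at -4.89, -2.69 and -6.23 on ZDL arrays, -4.33, -4.75 and -5.43 on DL arrays, -5.47, -4.44 and -3.27 on SL arrays and -4.26, -6.49 and -6.31 on NL arrays, with overlapping groups. None of the 5 passed. Ifngr2, a chain of the interferon gamma receptor, was at -0.02, -0.80 and -0.44 on ZDL arrays, -1.05, -0.86 and -1.17 on DL arrays, -0.29, -0.47 and -0.21 on SL arrays and -0.30, -0.62 and -0.48 on NL arrays. It ran against the interferon-response genes, lowest on the DL arrays (DL minus SL -0.70 ± 0.20, adjusted p = 0.213; ZDL minus DL 0.61 ± 0.20, adjusted p = 0.245). Of 24 genes of sensing and signalling, 13 were tested, 8 were higher and 5 lower in DL than SL (median 0.11), 4 higher and 9 lower in ZDL than DL (median -0.09), and none passed. The Janus kinase Jak1 was higher in DL than SL without overlap (log2 0.35 ± 0.14, adjusted p = 0.354).

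A list of 55 further interferon-induced genes, 28 of them tested, leaned the same way as the 31. In DL against SL 19 were higher and 9 lower (median 0.30), 11 higher and 2 lower without overlap, against 11.7% and 10.8% of all features. In ZDL against DL 6 were higher and 22 lower (median -0.39), 1 higher and 11 lower without overlap, against 6.82% and 10.5%. Called in the limma fit were 0.433% of all features with L-DOPA and 0.479% with zonisamide. Tap2, a subunit of the peptide transporter that loads MHC class I, was at -1.88, -2.08 and -2.19 on ZDL arrays, -0.70, -0.42 and -0.87 on DL arrays, -1.70, -1.92 and -1.72 on SL arrays and -1.80, -1.88 and -1.29 on NL arrays. It rose with L-DOPA (log2 1.11 ± 0.19, adjusted p = 0.0458) and fell with zonisamide (log2 -1.39 ± 0.19, adjusted p = 0.0240). Its partner Tap1 fell with zonisamide (log2 -1.73 ± 0.30, adjusted p = 0.0427), and Slfn2, a Schlafen family gene, rose with L-DOPA (log2 1.07 ± 0.19, adjusted p = 0.0485). In the fit with replicate number as a block neither zonisamide call held (adjusted p = 0.0657 for Tap2 and 0.0574 for Tap1). With 1 array left out, the zonisamide call of Tap2 was lost without DL 2, DL 3, ZDL 2 or ZDL 3 (adjusted p up to 0.120) and that of Tap1 without any of these, NL 1 or any SL array (up to 0.160). The L-DOPA call of Tap2 was lost in 11 of these 12 fits, without any array but NL 3 (adjusted p up to 0.187), and that of Slfn2 in all 12 (0.0520 to 0.180). The chemokine Ccl5 was at -2.80, -3.93 and -2.86 on ZDL arrays, -1.95, -1.23 and -0.46 on DL arrays, -3.39, -3.48 and -3.10 on SL arrays and -3.33, -2.96 and -3.73 on NL arrays, so the DL arrays were the 3 highest. Its differences, 2.11 ± 0.40 and -1.98 ± 0.40, did not pass (adjusted p = 0.0630 and 0.0664).

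Markers of other cell types were set beside these genes, array by array, and none of them passed the test in any comparison. In a piece of whole tissue fewer cells of a type and less RNA per cell cannot be told apart. The summed level of 9 endothelial markers was 4.31 to 6.25 on ZDL arrays, 7.70 to 10.74 on DL arrays, 6.14 to 7.78 on SL arrays and 4.88 to 6.92 on NL arrays, so ZDL lay below DL without overlap. In DL against SL 6 of the 9 were higher and 3 lower (median 0.23). In ZDL against DL 7 of the 9 were lower, 4 without overlap (against 10.5% of all features), among them Cldn5 (log2 -0.92 ± 0.19, adjusted p = 0.0664), Kdr (-1.45 ± 0.30, adjusted p = 0.0664) and Pecam1 (-0.93 ± 0.19, adjusted p = 0.0680). Microglia and macrophage markers, 14 of 14 tested, summed to 29.2 to 30.97 on ZDL arrays, 34.8 to 41.1 on DL arrays, 37.2 to 48.1 on SL arrays and 26.9 to 35.5 on NL arrays, so ZDL again lay below DL without overlap. In DL against SL 6 of them were higher and 8 lower (median -0.22), and in ZDL against DL 3 were higher and 11 lower (median -0.32). In the latter 1 was higher and 3 lower without overlap, against 6.82% and 10.5% of all features. Lymphocyte and neutrophil markers, 9 of 13 tested, summed to only 0.291 to 0.349 on ZDL arrays, 0.379 to 0.454 on DL arrays, 0.351 to 0.470 on SL arrays and 0.326 to 0.403 on NL arrays, with Cd8a and Cd3g too dim to test. Here ZDL also lay below DL without overlap. Of the 9, 6 were higher and 3 lower in DL than SL (median 0.37), and 1 was higher and 8 lower in ZDL than DL (median -0.47). Astrocyte markers summed to 32.6 to 41.6 on ZDL arrays, 39.9 to 51.5 on DL arrays, 36.6 to 50.0 on SL arrays and 35.9 to 49.5 on NL arrays, and in DL against SL 5 of the 8 were higher and 3 lower (median 0.19). The one furthest up, the reactive-astrocyte gene Lcn2, gave 2.95 ± 0.56 (adjusted p = 0.0619). In ZDL against DL 2 of the 8 astrocyte markers were higher and 6 lower (median -0.48), with Lcn2 furthest down (log2 -2.38). Meninges markers, 8 of 8 tested, summed to 2.44 to 6.32 on ZDL arrays, 3.60 to 12.4 on DL arrays, 3.30 to 4.40 on SL arrays and 3.03 to 16.9 on NL arrays. Of these, 7 were lower and 1 higher in ZDL than DL (median -0.44), and 6 were higher and 2 lower in DL than SL (median 0.30). Choroid plexus markers, 10 tested, were all higher in DL than SL (median 2.89) and all lower in ZDL than DL (median -1.56), none called, with summed levels of 9.05 to 114 on ZDL arrays, 23.1 to 180 on DL arrays, 3.61 to 23.8 on SL arrays and 9.25 to 150 on NL arrays. The part of these markers in the interferon-response values was not tested.

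**Figure D5:**
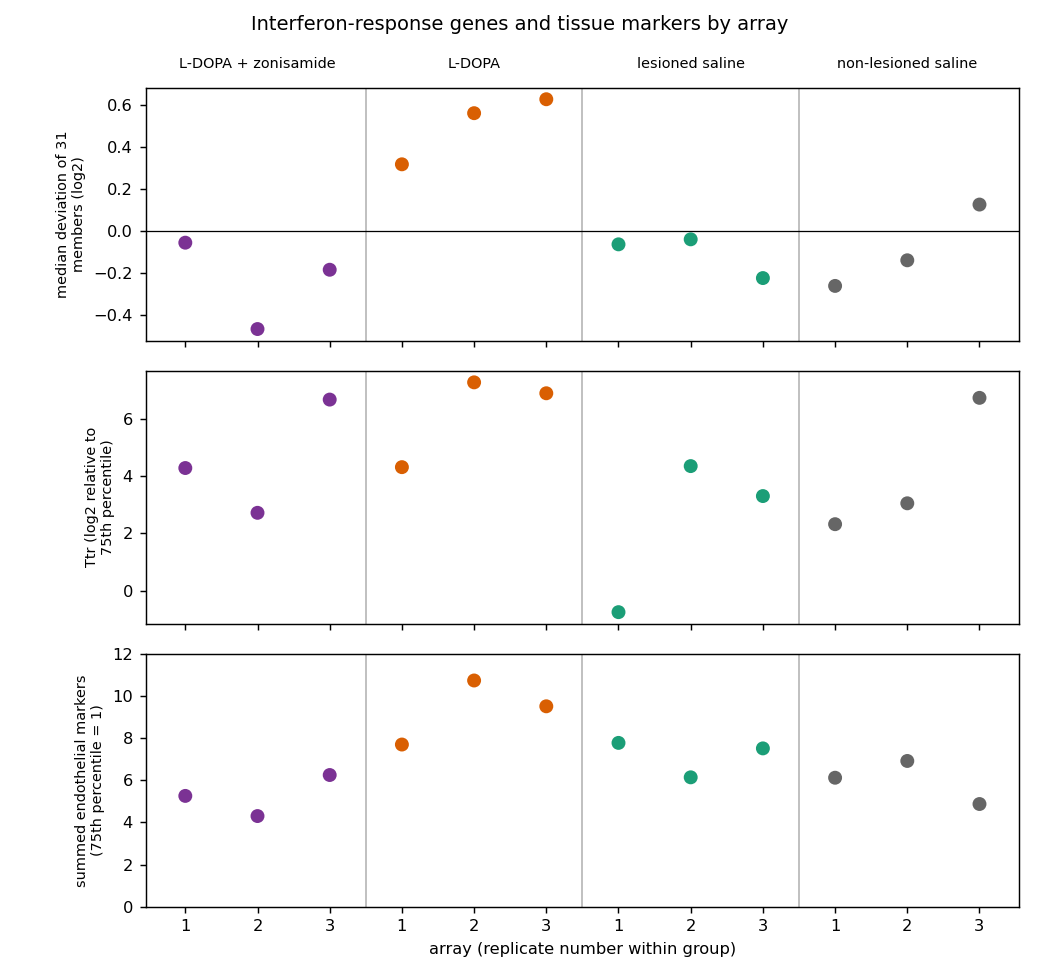
By array (horizontal axis, grouped), the median deviation of the 31 interferon-response genes from their means (top, log2), the log2 signal of Ttr relative to the 75th percentile (middle) and the summed level of 9 endothelial markers, where the 75th percentile is 1 (bottom). The 3 DL arrays are the highest in the top panel; Ttr is high on ZDL 3, DL 2, DL 3 and NL 3 alike.

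The difference between ZDL and DL was seen within each of the 3 slides that held both groups. On slide 1 the median over the 31 genes was -0.34 (8 higher, 23 lower), with Ttr differing by -0.03, and on slide 2 it was -0.78 (5 higher, 26 lower), with Ttr differing by -0.22. On slide 4 it was -1.04 (1 higher, 30 lower), and there Ttr differed by -4.55. Pecam1 differed by -0.53, -0.85 and -1.39 on slides 1, 2 and 4. DL and SL shared 2 slides, with medians of 0.35 (23 higher, 8 lower) on slide 1 and 0.66 (28 higher, 3 lower) on slide 4, where Ttr differed by 5.06 and 2.92. Without the 4 arrays of highest Ttr, which leaves 1 DL array assumed to vary like the other groups, the median was -0.56 for ZDL minus DL and 0.30 for DL minus SL, with 27 lower and 23 higher of 31, and 0 genes were called. Lesion values within slide 1, the 1 slide with both saline groups, had a median of 0.23 (19 higher, 12 lower), and ZDL minus SL had medians of 0.03 on slide 1 (17 higher, 14 lower) and -0.33 on slide 4 (4 higher, 27 lower).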

How the data were processed

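The members and gene lists were chosen with earlier results of these data known. Per the file headers, the authors quantified each spot in version 10.7.3.1 of Agilent's Feature Extraction software, and the deposited processed intensity is background-subtracted and not scaled between arrays. The deposited combined table held the same values on all 62976 spots (relative tolerance 1e-06). Median spot intensity, deposited without background subtraction, served the normexp alternative (offset 50). Outlier spots were dropped, spots of a probe averaged, and the array's 75th percentile subtracted on the log2 scale. Testing required a probe to be well above background, on a share of its spots of 0.5 or more, on the 3 arrays of any 1 group. Accessions were named through RefSeq (GRCr8), 17328 of 30367 probes matching 1 symbol. The probe of highest mean stood for a gene. One limma model (3.58.1, in R 4.3.3 with version 1.17.8 of data.table) covered all 12 arrays, with 8 residual degrees of freedom and two-sided Benjamini-Hochberg adjusted p over 19412 features. Simulated data were used to test the script. With 3 arrays a group, the number of arrays limits precision. Same-numbered ZDL and DL arrays shared slides and their deviations correlated (0.37, 0.194 and 0.254). In the other comparisons same-numbered arrays did not all share slides. The main fit used group alone and ignored this pairing. The pairing entered only through the fits with replicate number or slide as a block. Array values are given for called members, the 6 of smallest p per comparison, and Irf7, Irf9, Stat2, Irf1, Isg15, Cxcl10, Ifitm3 and Eif2ak2; others that stand out (Bst2, Ifngr2 and the like) were picked after their values were seen.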

Additional observations from a re-analysis of the deposited data

How the results depend on the processing

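Over 23 other settings per drug comparison, 23 to 30 interferon-response genes were higher in DL than SL and 26 to 30 lower in ZDL than DL, of 29 to 34 counted depending on the filter, whereas for ZDL against SL 4 to 23 were higher and over 22 settings for the lesion 5 to 22. The calls were less stable, and 3 arrays per group limit them. For L-DOPA the 84 features called became 48 with no filter on dim probes, 38 with normexp and quantile normalization, 0 with only both groups compared, 34 with the replicate block, 0 with slide as a fixed block, 1 without the 5 arrays whose replicate spots varied by over 20% and 7 without the 4 arrays of highest Ttr (chosen after seeing the data), and 2 to 210 with 1 array left out. The 1 member called became 0 in each of these 7 settings and 0 to 2 with 1 array left out. The member median of 0.61 became 0.30 without the 4 arrays, and 0.55 to 0.76 with 1 left out. For zonisamide the 93 features became 45 with no filter, 8 with normexp, 0 with both groups only, 13 with the replicate block, 0 with slide fixed, 188 with slide random, 1 without the 5 arrays and 6 without the 4 arrays, and 0 to 253 with 1 left out. The 2 members called became 0 with normexp, both groups only, the replicate block, slide fixed, without the 5 and without the 4 arrays, and 0 to 2 with 1 left out. The median of -0.74 over the 31 genes became -0.48 with normexp and -0.56 without the 4 arrays, and -0.79 to -0.50 with 1 left out. The lesion median reversed to 0.25 with slide fixed and 0.18 without NL 3 or without the 4 arrays, ranging from -0.17 to 0.18, and 17 features were called without the 4 arrays, 0 to 13 with 1 left out. For both drugs the median ranged from -0.29 to 0.092 and 0 to 3 features were called. Without the 5 arrays the lesion has no value, since all NL arrays are among them. Fewer arrays or residual degrees of freedom enter the fits by groups, blocks and left-out arrays; for the other changes the cause was not tested.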
